A study of Mus musculus with 13 samples.

Results

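Transcript levels of 34 genes of mitochondrial fatty acid oxidation were followed in interscapular brown adipose tissue (iBAT) of 13 mice, with 1 sequencing library per mouse. The genes were chosen by function, though with earlier results of these data known: the enzymes and carriers of fatty acid activation, the carnitine shuttle, beta-oxidation and electron transfer. All 34 were found among the 42416 gene identifiers of the count tables, and all 34 were among the 13360 genes that passed the filter for low counts. Per the labels, 8 libraries were from iFAXLKO animals (floxed Axl with Cre) and 5 from WT animals (the same floxed Axl without Cre). Per the methods of the study, the animals were homozygous for the floxed allele, the Cre was an Adipoq-CreERT2 inserted from a bacterial artificial chromosome and carried on 1 chromosome copy, and females were used. Adipoq drives it in adipocytes, so other cells of the tissue keep Axl, and white adipocytes are targeted as well as brown ones. Both groups were kept at room temperature on a high-fat diet (HFD), and all animals were dosed with tamoxifen at intervals of 3 weeks. The comparison asks what loss of the receptor kinase AXL from adipocytes does to the transcripts of fat burning in iBAT.

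Mitochondrial beta-oxidation shortens fatty acids in the mitochondrial matrix. Long-chain fatty acids are joined to coenzyme A outside the matrix, carried across the inner membrane as carnitine esters, and then shortened by repeated rounds of dehydrogenation, hydration, a further dehydrogenation and thiolysis, each round releasing acetyl-CoA. Electrons from the dehydrogenation steps reach the respiratory chain through the electron transfer flavoprotein and through NADH. Brown fat is among the tissues richest in this machinery, since it burns fatty acids to make heat.

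Axl (ENSMUSG00000002602, chromosome 7, 25757273 to 25788705, GRCm38) is the check of the labels. In the 5 WT libraries, in replicate order, it stood at 28.4, 26.9, 26.3, 33.8 and 23.5 library-size-scaled counts (CPM), and in the 8 iFAXLKO libraries it ran from 26.5 over a median of 31.6 to 43.9 CPM. Axl was thus not lower in the libraries labelled iFAXLKO: the log2 fold change was 0.25 (SE 0.13) at an adjusted p of 0.699 by edgeR's quasi-likelihood test. With a fibroblast marker score as a covariate it was -0.24 (edgeR adjusted p = 0.9999), and with a macrophage marker score -0.05. Both scores were added after seeing the data. The counts are summed over the whole gene and the whole tissue, so transcripts that keep exons outside the floxed part, and Axl of other cells, cannot be told apart from intact adipocyte Axl. The groups are therefore named by their labels, and every direction given here is that of the libraries labelled iFAXLKO against those labelled WT.

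The promoters of 27 of the 34 genes were given in a RefSeq table for GRCm38.p6, covering 250 bases before and 50 after the start of the gene. They were searched on both strands for binding motifs of factors known to control this pathway. The hexamer AGGTCA, the core bound by nuclear receptors such as the PPAR and estrogen-related receptor (ERR) families, was present in 4 of the 27 (Acadm, Acadvl, Cpt1a and Echs1), while 18.1% of the promoters of 27025 genes held it. The PPAR type of direct repeat, AGGTCANAGGTCA with at most 2 mismatches outside the N, was present in 3 (Echs1, Etfa and Slc25a20), against 4.40% of all promoters. The ERR element TCAAGGTCA, which contains the hexamer, was in none of the 27, and in 0.466% of all. CGCATGCG, the core of the NRF1 motif, was present in 3 (Acad10, Acadm and Etfdh), against 2.07%. A match is a string of letters in the window and not a measured binding site, and the promoters of Acot13, Acat1, Cpt1b, Crat, Decr1, Acad9 and Acaa2 were not analysed here.

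Stretches are shown for 4 of these genes, chosen because Etfa and Cpt1a are compared with a partner gene below and Acadvl and Acadm encode the very-long-chain and medium-chain dehydrogenases. Each runs 5′ to 3′ on the strand of its gene, upstream of the RefSeq start, and the capitals mark the motif: the direct repeat in Etfa (chr9:55512251-55512370, minus strand, lying on the opposite strand), the hexamer in Acadvl (chr11:70015446-70015565, minus strand) and in Cpt1a (chr19:3323157-3323276, plus strand, read as its complement), and the NRF1 core in Acadm (chr3:153944733-153944852, minus strand). None of the 4 stretches overlaps an exon in GENCODE M21, and the Cpt1a stretch lies in an intron of another annotated Cpt1a transcript.
Etfa: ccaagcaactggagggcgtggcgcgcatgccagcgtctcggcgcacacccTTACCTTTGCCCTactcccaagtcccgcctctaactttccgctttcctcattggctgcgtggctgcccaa
Acadvl: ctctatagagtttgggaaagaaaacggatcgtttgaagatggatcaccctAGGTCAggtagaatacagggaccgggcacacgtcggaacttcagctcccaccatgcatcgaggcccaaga
Cpt1a: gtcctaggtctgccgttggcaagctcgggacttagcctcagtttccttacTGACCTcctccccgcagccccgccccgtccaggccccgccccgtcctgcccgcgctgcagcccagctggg
Acadm: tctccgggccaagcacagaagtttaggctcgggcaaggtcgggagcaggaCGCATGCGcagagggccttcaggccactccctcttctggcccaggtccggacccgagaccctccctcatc

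Hadha and Hadhb, the paired subunits of the trifunctional protein, lie head to head on chromosome 5, with RefSeq starts 273 bases apart. The 85 bases between their annotated exons (chr5:30155163-30155247, plus strand, written in the direction of Hadhb) held none of the motifs searched. They are shown because the ratio of the paired genes is followed below.
Hadhb: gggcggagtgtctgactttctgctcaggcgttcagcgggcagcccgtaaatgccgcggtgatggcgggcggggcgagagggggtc

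The levels of the 34 genes spanned a 631-fold range in the WT libraries once divided by exon length. On the scale of CPM per kilobase (kb) of exon, the highest were Acadl at 1709.7, Acaa2 at 1678, Acadvl at 1399, Ech1 at 912, Etfb at 819.6, Etfa at 803 and Fabp3 at 706. These are 2 long-chain acyl-CoA dehydrogenases, a matrix thiolase, a dienoyl-CoA isomerase, both subunits of the electron transfer flavoprotein and a cytosolic fatty acid carrier. The lowest were Cpt1a at 2.71, Acsl4 at 3.53, Acsl3 at 6.28, Acad10 at 9.01 and Acad9 at 9.16 CPM per kb. The muscle-type carnitine palmitoyltransferase Cpt1b stood at 396 CPM per kb, so the gene known as the liver type, Cpt1a, gave a small minority of the transcripts for this step in iBAT. Acadl and Acaa2 did not differ beyond the spread of the 5 libraries, nor did Etfb and Etfa or Hadha and Hadhb, at 341 and 332 CPM per kb. Even the scarcest gene had at least 16.2 CPM in every library, well above the 0.092 to 0.134 CPM that a count of 0 allows at these depths.

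**Figure D1:**
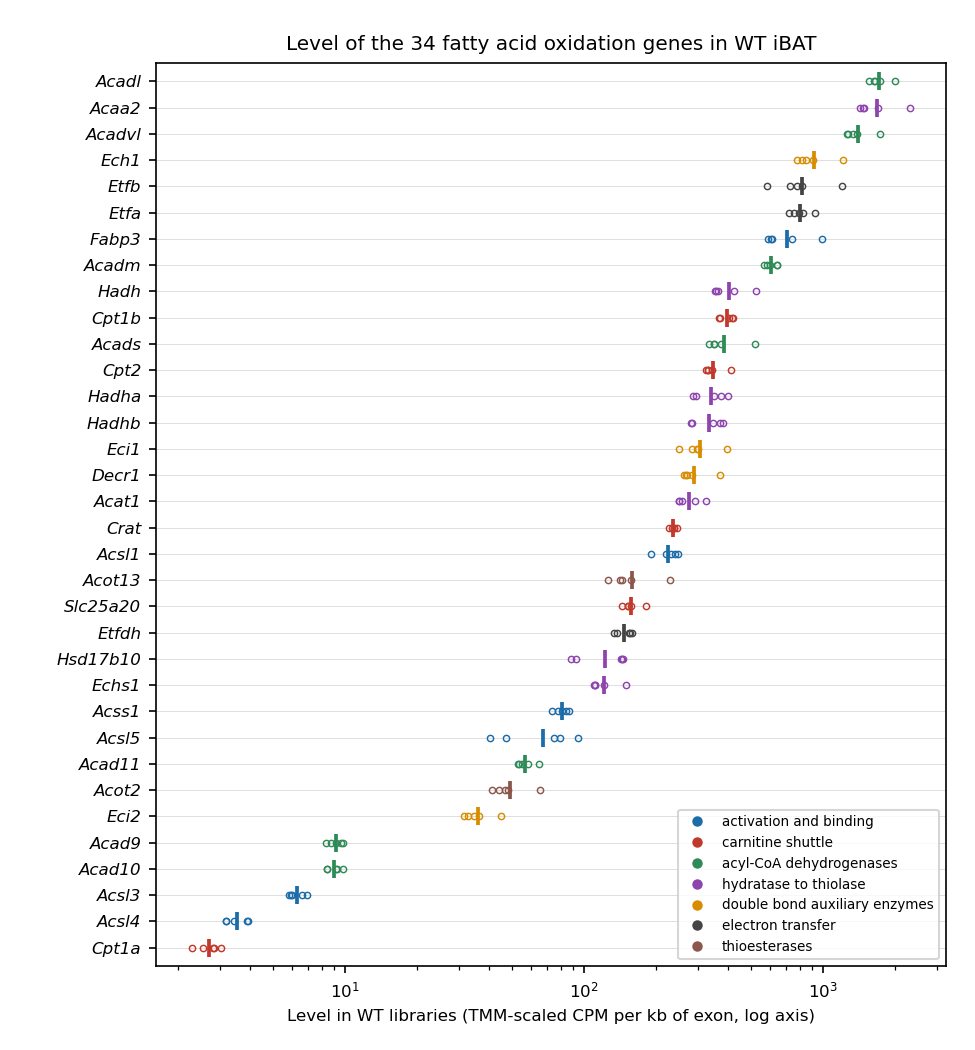
Level of each of the 34 genes in the 5 WT libraries, in CPM per kb of exon on a log axis, with 1 circle per library, a bar at the mean and colours for the roles in the pathway. Acadl and Acaa2 stand at the top and Cpt1a at the bottom, 631-fold apart.

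The whole series gives the frame for these values. Total counts ran from 22.44 to 32.6 M per library, and no pair of libraries within a group agreed within sampling noise, so each was counted as 1 replicate. In all, 17 of the 13360 genes tested differed at an adjusted p under 0.05 (0.127%), and the median log2 fold change of all genes was -0.01. At an unadjusted p under 0.05, 3.54% of all genes were lower and 3.84% were higher in the iFAXLKO-labelled libraries, and 0.434% had ranges that did not overlap between the groups. Which mice shared a cage is not given in the sources used here, and p-values measure the spread between these mice.

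No gene of fatty acid oxidation passed the test. In simulated data the same test called 88 of the 2-fold changes and 16 of an equal number of 1.3-fold changes. Most changes of the latter size were thus missed. Of the 34, 0 had an adjusted p under 0.05 by edgeR, and the adjusted p ran from 0.340 to 0.994. Their log2 fold changes leaned to the negative side: 31 were negative and 3 positive (Cpt1a, Acsl4 and Etfb), with a median of -0.12. Across all genes tested, 53.6% were negative. At an unadjusted p under 0.05, 6 of the 34 were lower (17.6%), namely Acot2, Etfa, Fabp3, Acadvl, Hadhb and Hadha, and 1 was higher (2.94%), namely Cpt1a. With DESeq2, 1 of the 34 passed, Etfa, at an adjusted p of 0.0213, and 67 of all 13360 genes passed. The differences were small: for 32 of the 34 genes, the 95% interval of the log2 fold change excluded a 1.5-fold fall, the exceptions being Acot2 and Acsl5. In tissue RNA, fewer brown adipocytes and less of a transcript per adipocyte cannot be told apart.

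**Figure D2:**
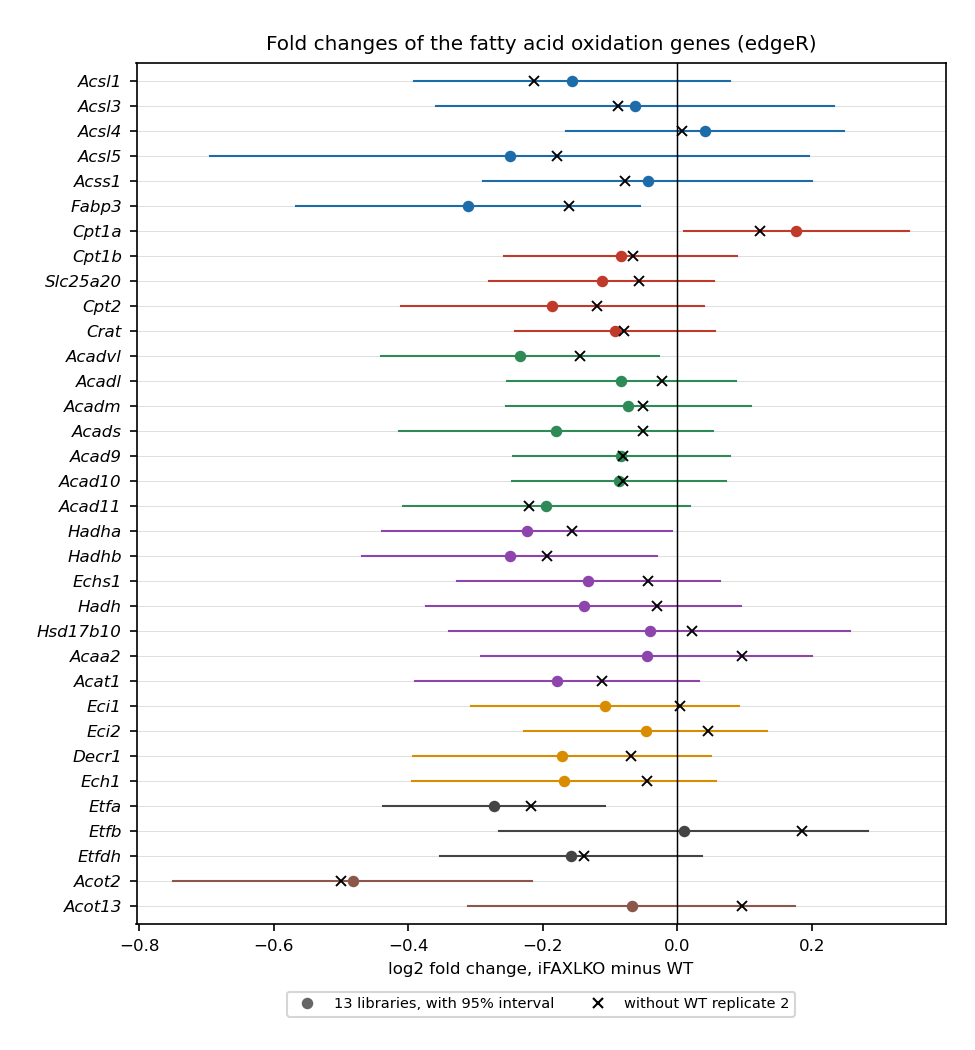
Log2 fold change (iFAXLKO minus WT) of each of the 34 genes from edgeR, with dots and 95% intervals for all 13 libraries (coloured by role) and crosses for the fit without WT replicate 2. With all libraries 31 of 34 dots lie left of 0, and without that library 26 crosses do.

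The lean was smaller without a single WT library. WT replicate 2 had the highest value of all 13 libraries for 20 of the 34 genes, and its summed level of the 34 genes was 45698 CPM, whereas the other 4 WT libraries lay between 35959 and 39342 CPM. The iFAXLKO-labelled libraries ran from 30631 to 38037 CPM, with a median of 34674, and 5 of the 8 lay below every WT library. Within the iFAXLKO-labelled group, replicate 7 was the lowest, and it gave the lowest value of all 13 libraries for 18 genes. Without WT replicate 2, the median log2 fold change of the 34 genes was -0.07, with 26 negative, 3 lower and 1 higher at an unadjusted p under 0.05. Of all 13338 genes tested in that fit, 844 were lower and 750 higher at the same limit, and 48.5% were negative. Etfa, Acot2 and Acad11 were the 3 lower genes then, and Etfb was the higher one.

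WT replicate 2 also differed from the others by transcript length. Over the 6098 genes tested with less than 4.02 kb of exon, which is the median of the 34 genes, its median log2 deviation from the mean of the libraries was 0.23, and over the 7246 longer genes it was -0.17. In the other 12 libraries both values stayed between -0.09 and 0.07. Among the 34 genes it was the highest of all libraries for 13 of the 17 with shorter exons and for 7 of the 17 with longer exons. It was the lowest WT library for 6 genes (Acsl1, Acsl3, Acsl4, Acss1, Cpt1a and Acad11), all with more than 4.02 kb. When each library's trend over exon length was removed, which was chosen after seeing the data, the median of the 34 genes was -0.13, with 31 negative and 0 passing the test.

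**Figure D3:**
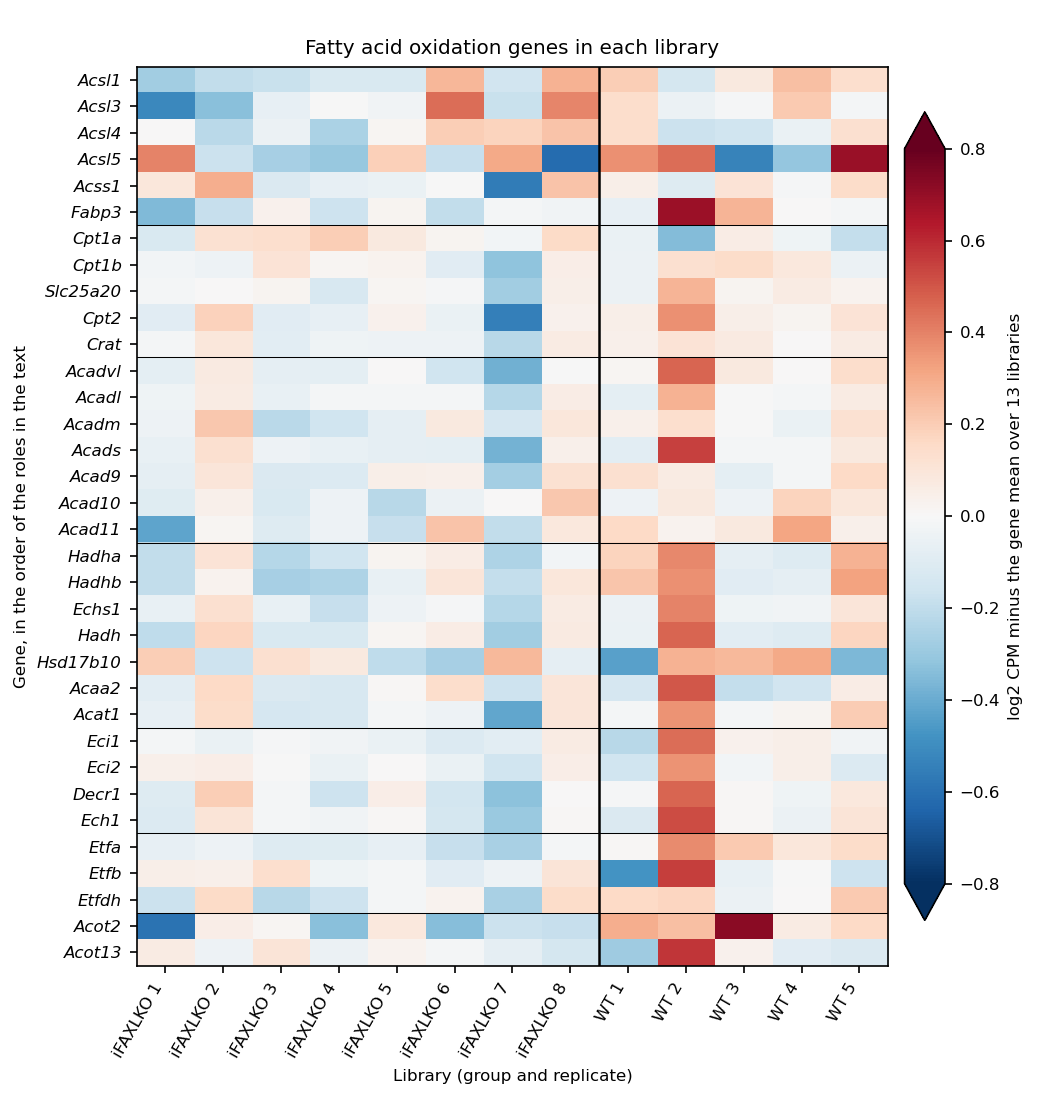
Log2 CPM of each of the 34 genes (rows, grouped by role) in each of the 13 libraries (columns), as the difference from the gene's mean over all libraries, red above and blue below. The column of WT replicate 2 is the reddest, with the highest value for 20 genes, and that of iFAXLKO replicate 7 is among the bluest, with the lowest for 18.

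Genes of fatty acid activation and binding come first in the pathway. None of the 6 passed the test, and 5 were negative. Acsl1 (chromosome 8, 46471037 to 46536051), the main long-chain acyl-CoA synthetase of adipocytes, stood at 2511, 1992, 2318, 2589 and 2413 CPM in WT and from 1811 over a median of 1995 to 2662 CPM in the iFAXLKO-labelled libraries. Of the 8 iFAXLKO-labelled libraries 4 lay below every WT library, while 2 lay above every WT library, and the log2 fold change was -0.16 (SE 0.11) and an adjusted p of 0.809. Fabp3 (chromosome 4, 130308595 to 130315463), the heart-type fatty acid binding protein that ferries fatty acids through the cytosol, stood at 482, 811, 608, 505 and 498 CPM in WT and from 395 over a median of 471 to 515 CPM in the iFAXLKO-labelled libraries. WT replicate 2 stood far above the rest, while all 8 iFAXLKO-labelled values lay below the WT mean. The log2 fold change was -0.31 (SE 0.12, edgeR adjusted p = 0.565), and -0.16 without WT replicate 2. Acsl5, which acts in part on mitochondria and the endoplasmic reticulum, varied most of all 34 genes, from 185 to 373 CPM in the iFAXLKO-labelled and from 196 to 458 CPM in the WT libraries, with a log2 fold change of -0.25 (SE 0.21). The acetyl-CoA synthetase Acss1, Acsl3 and Acsl4 had log2 fold changes of -0.04, -0.06 and 0.04, values that became -0.08, -0.09 and 0.01 without WT replicate 2 and 0.02, -0.04 and 0.02 without iFAXLKO replicate 7.

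The paired entry enzymes of the carnitine shuttle had log2 fold changes of opposite sign, and neither passed the test. CPT1, on the outer membrane, makes acylcarnitine and is the step that malonyl-CoA blocks. Cpt1a (chromosome 19, 3322334 to 3385733), whose promoter stretch is printed above, stood at 21.5, 17.5, 23.2, 21.8 and 19.6 CPM in WT and from 20.5 over a median of 23.8 to 25.6 CPM in the iFAXLKO-labelled libraries. Of the 8, 7 lay above the WT mean, although the ranges overlapped. Its log2 fold change was 0.18 (SE 0.08) at an unadjusted p of 0.0393 and an adjusted p of 0.641, and it was 0.12 without WT replicate 2. Cpt1b (chromosome 15, 89416405 to 89425863) stood at 1241, 1402, 1420.0, 1362 and 1243 CPM in WT and from 1027 over a median of 1280.2 to 1387 CPM in the iFAXLKO-labelled libraries, a log2 fold change of -0.08 (SE 0.08, edgeR adjusted p = 0.881) that was -0.05 without iFAXLKO replicate 7. With a fibroblast marker score as a covariate, Cpt1a had 0.12 and Cpt1b -0.01. With a macrophage marker score they had 0.10 and -0.06. Of the exon bases of Cpt1b, 81.4% are shared with Gm44502, an annotated read-through with the neighbouring Chkb. In each library Gm44502 was counted at 97.2% to 98.5% of Chkb plus Cpt1b, as when shared reads count for both genes. The authors' rule for such reads is not stated, so the level of Cpt1b is uncertain.

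Slc25a20 (chromosome 9, 108662088 to 108684641) encodes the carrier that exchanges acylcarnitine for carnitine across the inner membrane. It stood at 701, 877, 737, 759 and 739.9 CPM in WT and from 599 over a median of 723 to 749 CPM in the iFAXLKO-labelled libraries. All 8 of the latter lay below the WT mean, but the ranges overlapped and the log2 fold change was -0.11 (SE 0.08, edgeR adjusted p = 0.809), or -0.06 without WT replicate 2. Cpt2 (chromosome 4, 107903981 to 107923610), which turns acylcarnitine back into acyl-CoA in the matrix, stood at 787, 982, 787, 775 and 824 CPM in WT and from 522 over a median of 731 to 866 CPM in the iFAXLKO-labelled libraries. Its extremes were the same libraries as for most of the set, WT replicate 2 and iFAXLKO replicate 7, and the log2 fold change was -0.19 (SE 0.11, edgeR adjusted p = 0.734), or -0.12 without WT replicate 2. Crat, the short-chain carnitine acyltransferase, varied least among WT libraries of all 34 genes and had a log2 fold change of -0.09.

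The ratio of the paired CPT1 genes within a library does not depend on library scaling. On the scale of log2 CPM per kb, Cpt1b exceeded Cpt1a by 7.19 ± 0.18 (SD, n = 5) in WT and by 6.93 ± 0.12 (SD, n = 8) in the iFAXLKO-labelled libraries. In linear terms these are 146-fold and 122-fold. The difference was -0.27, with all 8 iFAXLKO-labelled libraries below the WT mean (exact permutation test, 2-sided, p = 0.00311, adjusted over 4 ratios p = 0.0109). The 4 ratios were chosen with earlier results of these data known, a choice that the adjustment does not cover. WT replicate 2 had the highest ratio, 7.50, and the others lay between 7.03 and 7.17. Without it the difference was -0.19 (exact permutation p = 0.0162), and with the trend over exon length removed it was -0.26. It was -0.31 within the lower and -0.26 within the upper range of library numbers, a grouping by the gap in the library numbers of the labels, which may or may not mark a batch. The only WT libraries of the lower range are replicates 1 and 2, so each value within that range rests in part on WT replicate 2. The ratios were not tested with the marker scores.

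The acyl-CoA dehydrogenases open each round of beta-oxidation, and each is suited to a chain length. All 7 had negative log2 fold changes, and 0 passed the test. Acadvl (chromosome 11, 70010183 to 70015411), the very-long-chain enzyme of the inner membrane, stood at 3423, 4666, 3574, 3392 and 3734 CPM in WT and from 2589.7 over a median of 3207 to 3558 CPM in the iFAXLKO-labelled libraries. Every iFAXLKO-labelled value was below the WT mean, and the groups overlapped between 3392 and 3558 CPM. The log2 fold change was -0.23 (SE 0.10, edgeR adjusted p = 0.619), and -0.14 without WT replicate 2. Acadl (chromosome 1, 66830839 to 66863277), the long-chain enzyme, stood at 3131, 3999, 3294, 3259 and 3457 CPM in WT and from 2819 over a median of 3261 to 3455 CPM in the iFAXLKO-labelled libraries, with a log2 fold change of -0.08 (SE 0.08) that was -0.02 without WT replicate 2. Acadm (chromosome 3, 153922357 to 153944632), the medium-chain enzyme, stood at 2354, 2516, 2283, 2209 and 2499 CPM in WT and from 1972 over a median of 2204 to 2658 CPM in the iFAXLKO-labelled libraries, with a log2 fold change of -0.07 (SE 0.09). The groups overlapped for both genes, with 1 iFAXLKO-labelled library below every WT library for Acadl and 4 for Acadm. Acads, the short-chain enzyme, and Acad11 had log2 fold changes of -0.18 and -0.19, or -0.05 and -0.22 without WT replicate 2, and the far scarcer Acad9, also known for its part in complex I assembly, and Acad10 had -0.08 and -0.09, with -0.05 for Acad9 without iFAXLKO replicate 7. Of the exon bases of Acadvl, 42.9% overlap Dvl2 on the opposite strand, and Dvl2 itself had 11.4 ± 1.48 CPM (SD, n = 8) and 11.7 ± 1.67 CPM (SD, n = 5).

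The steps from hydratase to thiolase were negative in all 7 genes, again with 0 past the test. Hadha (chromosome 5, 30118304 to 30155162) and Hadhb (chromosome 5, 30155248 to 30184593) encode the subunits of the trifunctional protein, which carries out the remaining steps for long chains. Hadha stood at 3046, 3507, 2558, 2503 and 3262 CPM in WT and from 2269.6 over a median of 2526 to 2898 CPM in the iFAXLKO-labelled libraries. Hadhb stood at 2279, 2513, 1839, 1862 and 2442 CPM in WT and from 1625 over a median of 1794 to 2088 CPM in the iFAXLKO-labelled libraries. For both genes WT replicates 1, 2 and 5 lay above every iFAXLKO-labelled library and WT replicates 3 and 4 lay within their range. The log2 fold changes were -0.22 (SE 0.10, edgeR adjusted p = 0.652) and -0.25 (SE 0.10, edgeR adjusted p = 0.619).

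The Hadha to Hadhb ratio differed little between libraries. On the log2 scale of CPM per kb it was 0.04 ± 0.03 (SD, n = 5) in WT and 0.07 ± 0.07 (SD, n = 8) in the iFAXLKO-labelled libraries, a difference of 0.03 (exact permutation p = 0.491). Within the lower range of library numbers, the log2 differences of Hadha and Hadhb were -0.40 and -0.46, and within the upper range -0.08 and -0.07. Both differences were thus larger over the 6 libraries of the lower range, where WT replicates 1 and 2 are the only WT libraries. Acaa2 (chromosome 18, 74779197 to 74806208), a matrix thiolase, stood at 2251, 3494, 2169, 2221 and 2580.4 CPM in WT and from 2207 over a median of 2413 to 2759.8 CPM in the iFAXLKO-labelled libraries. The log2 fold change was -0.05 (SE 0.12) with all libraries and 0.10 without WT replicate 2, which stood well above every other library. Echs1, Hadh and Acat1, the short-chain hydratase, short-chain dehydrogenase and acetoacetyl-CoA thiolase, had log2 fold changes of -0.13, -0.14 and -0.18, and Hsd17b10, which also serves branched-chain amino acid breakdown, had -0.04. Without WT replicate 2 the 4 values were -0.04, -0.03, -0.11 and 0.02.

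The auxiliary enzymes for double bonds, which let unsaturated fatty acids pass through the cycle, had log2 fold changes of -0.11 for Eci1, -0.05 for Eci2, -0.17 for Decr1 and -0.17 for Ech1, and 0 of the 4 passed. Their values were set apart by WT replicate 2, which was the highest of all libraries for each. It had 839 CPM of Eci1, for instance, where the other WT libraries had 529 to 636 and the iFAXLKO-labelled libraries 569.7 to 644 CPM. Without it, the log2 fold changes in the same order were 0.0036, 0.05, -0.07 and -0.05.

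Electron transfer held the one gene whose ranges did not overlap between the groups. Etfa (chromosome 9, 55454508 to 55512243), whose promoter stretch with the direct repeat is printed above, encodes the alpha subunit of the electron transfer flavoprotein, which takes electrons from the acyl-CoA dehydrogenases. It stood at 1315, 1697, 1514, 1390.3 and 1448 CPM in WT and from 1094 over a median of 1236 to 1294 CPM in the iFAXLKO-labelled libraries. Every iFAXLKO-labelled library was below every WT library. The log2 fold change was -0.27 (SE 0.08) at an unadjusted p of 0.00300 and an adjusted p of 0.407 by edgeR, and the exact permutation p was 0.000777, the smallest that 13 libraries divided into 8 and 5 can give. Of the 34 genes, 1 had ranges that did not overlap (2.94%), against the 0.434% of all genes given above. The value was -0.22 without WT replicate 2, -0.26 with the trend over exon length removed, and -0.27 and -0.28 within the lower and upper ranges of library numbers. The adjusted p of Etfa ran from 0.0213 to 1.00 over the other fits and from 0.242 to 0.841 with 1 library left out.

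The beta subunit gave another picture. Etfb (chromosome 7, 43444083 to 43457800) stood at 680.0, 1392, 909, 945 and 844 CPM in WT and from 888 over a median of 957 to 1039 CPM in the iFAXLKO-labelled libraries. The WT libraries lay on both sides of the iFAXLKO-labelled ones, with a log2 fold change of 0.01 (SE 0.13). Without WT replicate 2 it was 0.19, at an unadjusted p of 0.0457 by edgeR. The Etfa to Etfb ratio, as log2 of CPM per kb, was 0.01 ± 0.25 (SD, n = 5) in WT and -0.31 ± 0.07 (SD, n = 8) in the iFAXLKO-labelled libraries. The difference was -0.32, with all 8 iFAXLKO-labelled libraries below the WT mean (exact permutation p = 0.00544, adjusted over 4 ratios p = 0.0109). A permutation of the labels takes the spread of the groups as equal. Here the WT group was both smaller and more variable, so this p can be too small. WT replicate 2, at -0.37, lay within the iFAXLKO-labelled range of -0.43 to -0.24, while the other 4 WT libraries lay above it, between -0.10 and 0.29. The difference was -0.41 without that library, and -0.31 with the trend over exon length removed. Of the exon bases of Etfb, 53.0% are shared with Gm45233, which was counted at 79.3% to 82.8% of Etfb in each library, so the level of Etfb is uncertain. Etfdh (chromosome 3, 79603788 to 79629500), the ubiquinone oxidoreductase that passes these electrons on, stood at 1152, 1164, 998, 1035 and 1190.0 CPM in WT and from 863 over a median of 970.5 to 1146 CPM in the iFAXLKO-labelled libraries, a log2 fold change of -0.16 (SE 0.09, edgeR adjusted p = 0.741).

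**Figure D4:**
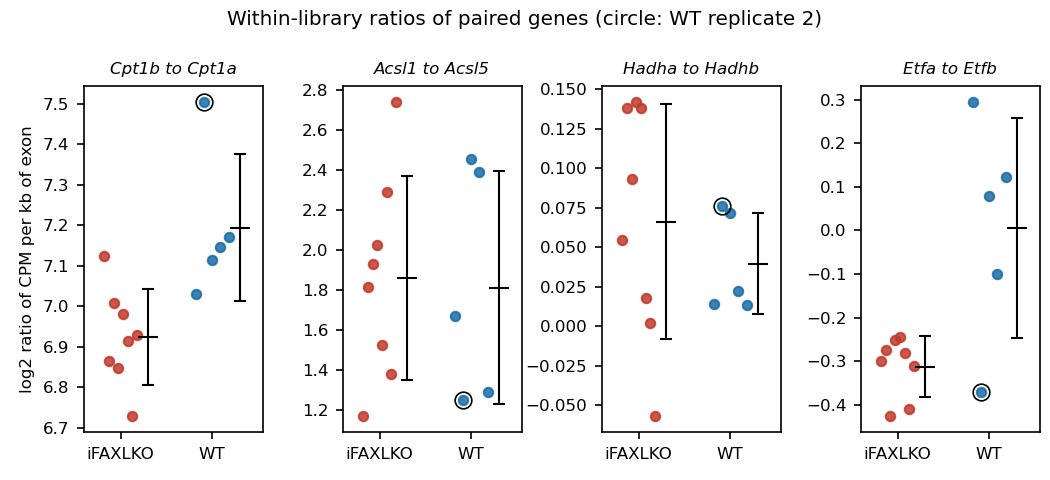
Log2 ratio of CPM per kb of exon for 4 gene pairs in each library, iFAXLKO red and WT blue, with the mean and SD beside the points and WT replicate 2 circled. Cpt1b to Cpt1a and Etfa to Etfb are lower on average in the iFAXLKO-labelled libraries, while Acsl1 to Acsl5 and Hadha to Hadhb are not set apart.

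Of the 4 ratios, the remaining one compared a pair of long-chain synthetases. Acsl1 exceeded Acsl5 by a log2 of 1.81 ± 0.58 (SD, n = 5) in WT and 1.86 ± 0.51 (SD, n = 8) in the iFAXLKO-labelled libraries, a difference of 0.05 (exact permutation p = 0.875). Its sign turned with 1 library left out in 4 of 13 cases, so no direction is given.

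The thioesterases, which free fatty acids from coenzyme A again, held the gene with the largest fold change of the set. Acot2 (chromosome 12, 83987861 to 83993873), the mitochondrial long-chain thioesterase and a known PPAR target, stood at 106, 103, 143, 90.7 and 96.8 CPM in WT and from 57.6 over a median of 76.7 to 92.1 CPM in the iFAXLKO-labelled libraries. All 8 were below the WT mean, and the groups touched only where WT replicate 4 (90.7 CPM) lay below the highest iFAXLKO-labelled library. The log2 fold change was -0.48 (SE 0.13) at an unadjusted p of 0.00150 and an adjusted p of 0.340 by edgeR, and the exact permutation p was 0.00233. The value was -0.50 without WT replicate 2, and -0.48 and -0.47 within the lower and upper ranges of library numbers. Leaving out 1 library at a time gave -0.54 to -0.34, with adjusted p from 0.165 to 0.680, and DESeq2 gave an adjusted p of 0.0607. Acot1, a near-identical cytosolic neighbour, was far scarcer at 17.97 ± 13.5 CPM (SD, n = 5) in WT and 16.2 ± 7.99 CPM (SD, n = 8), and reads shared between the copies make both values uncertain. Acot13, also a thioesterase, had a log2 fold change of -0.07, or 0.10 without WT replicate 2.

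**Figure D5:**
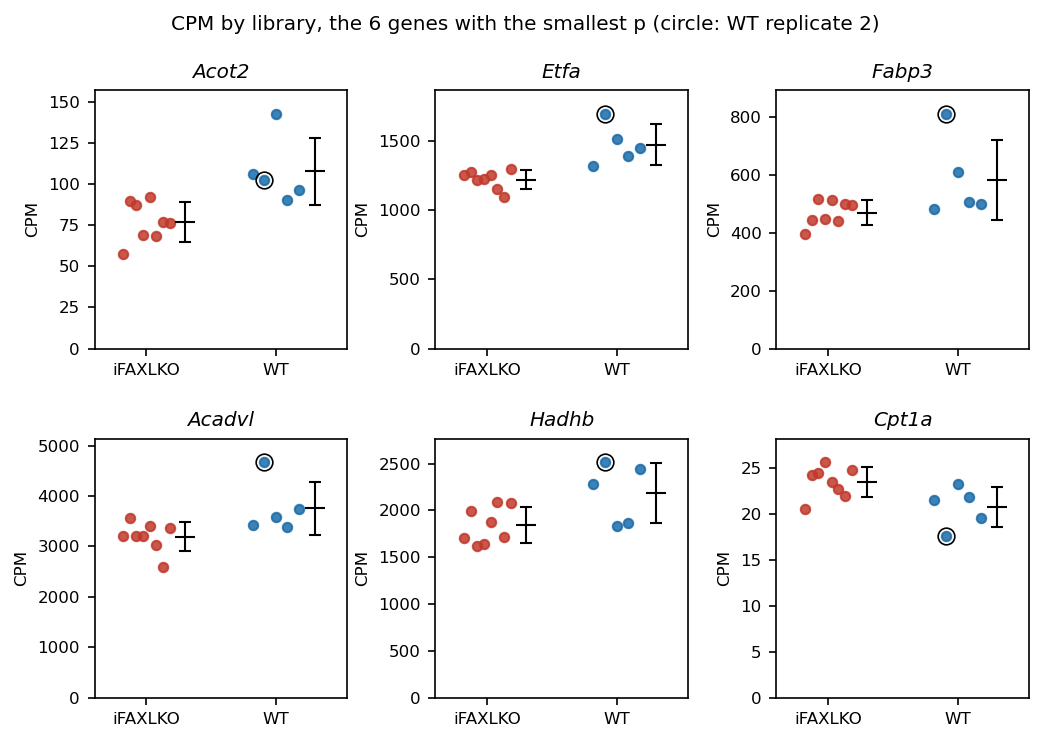
CPM of the 6 genes of the set with the smallest p in each library, iFAXLKO red and WT blue, with the mean and SD beside the points and WT replicate 2 circled; the axes start at 0. Etfa is the gene without overlap, and Cpt1a is the one with higher values in the iFAXLKO-labelled libraries.

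The other genes of the pathway were taken from a list of 57 by role, of which 56 were tested. None passed (adjusted p from 0.621 to 1.00), 40 of the 56 were negative, and 3 were lower and 0 higher at an unadjusted p under 0.05, where 3.54% and 3.84% of all genes were. The 3 were Pdk2, a pyruvate dehydrogenase kinase that favours fat over glucose as fuel, at a log2 fold change of -0.15 (SE 0.07, edgeR adjusted p = 0.664), Acot9, a further mitochondrial thioesterase, at -0.20 (SE 0.08, edgeR adjusted p = 0.621), and Pcca, a subunit of propionyl-CoA carboxylase for odd-chain fatty acids, at -0.25 (SE 0.11, edgeR adjusted p = 0.625). All 8 iFAXLKO-labelled libraries lay below the WT mean for each of the 3, and without WT replicate 2 the values were -0.12, -0.11 and -0.21. Among the 11 regulators, 9 were negative and 0 passed. Ppara, the nuclear receptor that switches on this pathway, ran from 63.0 over a median of 95.3 to 158 CPM in the iFAXLKO-labelled libraries and stood at 204, 52.5, 107, 128 and 199.7 CPM in WT. Its lowest value of all was WT replicate 2, the library in which most of the 34 genes were highest, and its log2 fold change of -0.42 (SE 0.31, edgeR adjusted p = 0.824) became -0.63 without that library. Ppargc1a, the coactivator of mitochondrial genes, and Pdk4, a PPAR target, had log2 fold changes of -0.07 (SE 0.14) and -0.21 (SE 0.17), or -0.16 and -0.29 without WT replicate 2. Acacb, which makes the malonyl-CoA that restrains CPT1, had -0.04 (SE 0.09).

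Markers of other cells moved with the groups beside these values. All 12 fibroblast markers were higher in the iFAXLKO-labelled libraries, each at an unadjusted p under 0.05 and none past the adjusted limit (adjusted p from 0.0517 to 0.615). Their summed level ran from 553 to 1232 CPM in these and from 396 to 718 CPM in WT. All 10 macrophage markers were higher, 8 at an unadjusted p under 0.05, with sums of 136 to 269 CPM against 114 to 165 CPM. Of 12 brown adipocyte markers 11 were negative, 1 at an unadjusted p under 0.05, with sums of 9151 to 13638 CPM against 11511 to 16263 CPM. The highest WT sum was that of WT replicate 2, and the other WT libraries reached at most 12923 CPM. Ucp1, the uncoupling protein that defines brown adipocytes, ran from 4030.2 to 7446 CPM in the iFAXLKO-labelled libraries and from 5492 to 7894 CPM in WT. Skeletal muscle markers ran from 65.6 to 6427 CPM and from 78.1 to 4492 CPM, with 0 of 20 markers at an unadjusted p under 0.05, while 19 of the 20 were negative. All 7 white adipocyte markers tested were positive, with a median log2 fold change of 0.21 and 1 at an unadjusted p under 0.05 (Retn at 0.87, edgeR adjusted p = 0.490), and their list summed to 102 to 185 CPM against 59.5 to 201 CPM. Hoxc9 and Hoxc10, the other 2 of that list, stayed at or under the floor of 3 counts in every library. Of 10 endothelial markers 9 were positive, with 1 at an unadjusted p under 0.05 and sums of 1171 to 1717 CPM against 1082 to 1419.8 CPM. All 5 erythroid markers tested were positive, with 1 at an unadjusted p under 0.05 and sums of 386 to 686 CPM against 285 to 709.7 CPM. None of the 10 lymphocyte markers passed the filter for low counts, and they summed to 3.08 to 12.4 CPM against 2.74 to 33.4 CPM.

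When the fibroblast score was added to the fit, a choice made after seeing the data, the median of the 34 genes was -0.06, with 27 negative, 1 lower and 0 higher at an unadjusted p under 0.05. With the macrophage score it was -0.04, with 25 negative, 2 lower and 0 higher. Such calls became fewer over all 13360 genes too. At that limit 473 were lower and 513 higher in the main fit. With the fibroblast score these counts were 95 and 68, and with the macrophage score 214 and 216. Acot2 and Etfa stood at -0.55 and -0.22 with the fibroblast score and at -0.65 and -0.23 with the macrophage score. Acadvl, Hadha and Hadhb moved from the values above to -0.16, -0.14 and -0.11 with the fibroblast score, and to -0.14, -0.08 and -0.07 with the macrophage score. Fabp3 stood at -0.31 with the fibroblast and -0.35 with the macrophage score, and Cpt1a at 0.12 and 0.10. The part of these other cells in the lean of the 34 genes was not tested beyond these fits.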

How the data were processed

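RNA was taken from iBAT of 13 mice on HFD, 8 labelled iFAXLKO and 5 labelled WT, and the authors deposited raw counts per gene for each library, with Ensembl identifiers and no normalization. Per the labels, libraries were made from poly-A RNA with a TruSeq kit, and the submitters' processing notes name bcl2fastq 2.20, fastp 0.20.0, STAR 2.7.4a, DESeq2 and GRCm38.p6, whereas the methods of the study name Trim Galore, hisat2 and depletion of ribosomal RNA. The counting tool and strand setting are not given in the sources used here, so values of overlapping genes and near-identical copies are uncertain. On the opposite strand, Dvl2 over Acadvl ran from 9.61 to 14.7 CPM, and Gm45244 over Acsl1 was at 0 CPM in every library.

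Genes above 1 CPM in at least 5 libraries were tested with edgeR 4.0.16 (R 4.3.3), using TMM factors, a robust quasi-likelihood F test of group alone and Benjamini-Hochberg adjustment over 13360 genes. The SE is the log2 fold change divided by the root of F, and intervals are 95% intervals on the total degrees of freedom. CPM are TMM-scaled, and lengths are of merged exons in GENCODE M21. Exact 2-sided permutation tests went over the 1287 ways to divide 13 libraries into 8 and 5. Ratios of gene pairs were taken on CPM per kb, and their p-values were adjusted over 4 pairs. The fit was tested on simulated data with known fold changes, where it called 88 of the 2-fold changes and 16 of an equal number of 1.3-fold changes.

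Alternatives were DESeq2 1.42.0, RLE factors, no filter, limma 3.58.1 (voom with quality weights), a replicate block, a skeletal muscle score or the library number range as covariates, and leaving out each library. Fibroblast and macrophage scores as covariates and removal of the exon length trend were added after seeing the data. The 34 genes, the related genes, the marker lists and the tests were chosen with earlier results of these data known. Named were Axl, all 34 genes, with library values for 12 core enzymes and the 6 genes with the smallest p, and, of the related genes, Ppara, Ppargc1a, Pdk4, Acacb, Acot1 and those with an unadjusted p under 0.05. Values of Acsl5, Eci1 and Etfb, the ratios and the overlapping genes were added to these. Total counts ran from 22.44 to 32.6 M, and floors of 3 counts cover counting error only.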

Additional observations from a re-analysis of the deposited data

Results flagged for a closer look

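Among 94 groups of values checked for a sample far from the others, 8 held one, where chance gives about 1 in 20. WT replicate 2 was the high value in 5 of them: Cpt2 at 982 CPM with the next WT library at 824, Acadvl at 4666 CPM with the next at 3734, Acads at 1173 CPM with the next at 848, Decr1 at 1430.5 CPM with the next at 1098, and Acot9 at 78.1 CPM with the next at 60.2. In the iFAXLKO-labelled group replicate 7 was the low value in the other 3: Cpt2 at 522 CPM with the next library at 716, Acadl at 2819 CPM with the next at 3160.2, and Acads at 619 CPM with the next at 760.2. Without WT replicate 2 the log2 fold changes were -0.12 for Cpt2, -0.14 for Acadvl, -0.05 for Acads, -0.07 for Decr1 and -0.11 for Acot9, and without iFAXLKO replicate 7 the log2 fold changes were -0.13 for Cpt2, -0.06 for Acadl and -0.14 for Acads.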

How the results depend on the processing

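No fit but DESeq2 called any of the 34 genes. It called 1, Etfa, and 67 of all genes, where edgeR called 17. The count of all genes called was 7 with the replicate block, 8 with the fibroblast and 11 with the macrophage score. The number of the 34 lower at an unadjusted p under 0.05 was 6, but 1 with the fibroblast score, 2 with the macrophage score and 3 without WT replicate 2 (3 to 7 with 1 library left out). Over all genes tested, the numbers lower in these 4 fits were 473, 95, 214 and 844. The number higher was 1, but 0 with no filter, voom, the block and the muscle, fibroblast and macrophage scores (0 to 1 with 1 library left out). The Acsl1 to Acsl5 difference was -0.0611 within the upper range of library numbers and -0.12 with the block (-0.0923 to 0.208 with 1 library left out), and that of Hadha to Hadhb was -0.0105 within the upper range. The cause of these changes was not tested.

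Replicate numbers do not pair the libraries: deviations of same-numbered libraries correlated at 0.392, 0.422, 0.188, 0.181 and -0.614, and 2 of 5 correlated best with their own number. With the replicate block, over replicates 1 to 5 only, 0 of the 34 genes passed, 9 were lower at an unadjusted p under 0.05, and the median was -0.11. Of all 13214 genes tested with the block, 694 were lower and 812 higher at the same limit. The Cpt1b to Cpt1a and Etfa to Etfb differences were -0.23 and -0.30 (exact permutation p = 0.125 each), where 5 pairs allow no p under 0.0625. Under the block Acsl4 was -0.0759 and Acot13 0.0004.

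Signs of single genes turned as follows. With the fibroblast score, the log2 fold change was 0.11 for Acsl3, 0.0856 for Acss1, 0.0176 for Acad9, 0.0443 for Acaa2, 0.26 for Ppargc1a and -0.24 for Axl. With the macrophage score it was 0.0783 for Acsl3, 0.0974 for Acss1, 0.0205 for Acadm, 0.0338 for Acad9, 0.0018 for Hadh, 0.12 for Acaa2, 0.0650 for Ppargc1a and -0.0508 for Axl. With voom it was 0.0872 for Acaa2, 0.0221 for Eci2 and 0.0714 for Acot13. With 1 library left out it ran from -0.0911 to 0.0207 for Acss1, -0.139 to 0.0347 for Hsd17b10, -0.0899 to 0.0962 for Acaa2, -0.171 to 0.0036 for Eci1, -0.0906 to 0.0461 for Eci2, -0.0898 to 0.185 for Etfb, -0.141 to 0.0965 for Acot13 and -0.36 to 0.35 for Acot1. RLE factors, the muscle score, the library number range as a covariate and removal of the length trend turned the sign of none of the genes named.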
